A study of Mus musculus with 4 samples.

Results

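The interferon regulatory factors (IRFs) are a family of transcription factors that share a DNA-binding domain. The members described here were chosen by name, by the symbols Irf1, Irf2, Irf3, Irf4, Irf5, Irf7, Irf8 and Irf9, and all 8 were found among the 12584 genes of the deposited table, which holds 9 Irf genes. They were followed in 34447 immune-sorted cells from 4 tumour libraries that fell into 17 cell classes. The tumour line in every library was YUMM1.7-OVA RTT, a melanoma of the mouse with BrafV600E and without Cdkn2a that had become resistant to targeted therapy and that carries ovalbumin as a model antigen. The tumours grew in young adult Rag2-/- mice, which make no B or T cells of their own. All mice received OT-1 CD8+ T cells against ovalbumin (adoptive cell transfer, ACT) on day 7, and CD45+ cells were sorted on day 10, which was 72 h later. In CTRL, the tumour line carried an empty mCherry vector. In IRF3/7, the line overexpressed IRF3 and IRF7 from vectors driven by the viral SFFV promoter, and it was a sorted bulk population and not 1 clone. In COX2i, mice with mCherry tumours received celecoxib, an inhibitor of cyclooxygenase 2, the enzyme that starts prostaglandin synthesis in inflammation. In COX2i + 5-AZA, they received celecoxib and 5-azacytidine, an inhibitor of DNA methylation. Each group was 1 library of 3 pooled tumours, so no difference below has a replicate check and no test between groups was possible.

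IRF3 and IRF7 lie in the cytosol until sensors of foreign nucleic acid activate the kinases that phosphorylate them, whereupon they switch on type I interferon genes. Interferon then acts through its receptor on the complex ISGF3, which holds STAT2 and IRF9 and switches on many interferon-stimulated genes, Irf7 among them. IRF1 is induced mainly by interferon-gamma and drives genes of antigen presentation and cell-autonomous defence, and IRF2 binds the same DNA element, often as its antagonist. IRF5 acts behind Toll-like receptors and is known for inflammatory cytokine genes in macrophages. IRF8 is required for type 1 dendritic cells (cDC1) and for monocyte development, and IRF4 is required for a large part of the type 2 dendritic cells (cDC2).

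The stretches of promoter below are shown because 3 of the members hold, just before a transcription start, a match to a letter pattern bound by factors of the pathway itself. The patterns searched on both strands were GAAANNGAAA, the core of the interferon-stimulated response element (ISRE) that IRFs and ISGF3 bind, and TTCNNNGAA, the gamma-activated site (GAS) of interferon-gamma-induced genes. Windows ran from 250 bases before to 50 bases after each start in the RefSeq annotation of GRCm38.p6. The ISRE pattern occurred in 1122 of all 32544 such windows (3.45%) and the GAS pattern in 2710 (8.33%). Sequences are the 250 bases before the first listed start, 5′ to 3′ on the strand of the gene, with the matches in capitals. Irf1 is shown from chr11:53769764-53770013 on the plus strand, Irf2 from chr8:46739495-46739744 on the plus strand and Irf8 from chr8:120736108-120736357 on the plus strand.
Irf1: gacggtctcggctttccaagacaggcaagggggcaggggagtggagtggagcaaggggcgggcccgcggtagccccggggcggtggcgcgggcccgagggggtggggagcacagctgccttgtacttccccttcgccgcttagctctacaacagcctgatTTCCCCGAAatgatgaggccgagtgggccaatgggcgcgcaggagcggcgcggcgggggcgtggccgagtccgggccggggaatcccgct
Irf2: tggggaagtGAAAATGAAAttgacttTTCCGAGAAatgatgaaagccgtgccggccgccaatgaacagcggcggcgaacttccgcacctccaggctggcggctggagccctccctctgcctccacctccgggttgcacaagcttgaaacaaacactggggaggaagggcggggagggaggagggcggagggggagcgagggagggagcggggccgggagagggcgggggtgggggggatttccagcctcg
Irf8: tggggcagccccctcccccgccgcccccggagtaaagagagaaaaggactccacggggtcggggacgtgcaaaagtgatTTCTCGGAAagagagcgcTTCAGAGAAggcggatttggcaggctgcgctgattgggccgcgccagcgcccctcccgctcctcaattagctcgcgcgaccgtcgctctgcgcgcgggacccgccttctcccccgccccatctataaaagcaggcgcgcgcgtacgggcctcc
Irf1 held 1 GAS match, TTCCCCGAA, that began 90 bases before the start. Irf2 held an ISRE match, GAAAATGAAA, and a GAS match, TTCCGAGAA, that did not overlap. Irf8 held 2 GAS matches, TTCTCGGAA and TTCAGAGAA. The windows of Irf3, Irf4, Irf5, Irf7 and Irf9 held neither set of letters, which says only that these letters were absent from those windows. A match is a description of the sequence and no binding was measured. In the GENCODE vM21 annotation of GRCm38, the genes lie at chr11:53770014-53778374 (Irf1, ENSMUSG00000018899.16, plus strand), chr8:46739732-46847458 (Irf2, ENSMUSG00000031627.9, plus), chr7:44997648-45002848 (Irf3, ENSMUSG00000003184.15, plus), chr13:30749226-30766976 (Irf4, ENSMUSG00000021356.10, plus), chr6:29526625-29541871 (Irf5, ENSMUSG00000029771.12, plus), chr7:141262706-141266481 (Irf7, ENSMUSG00000025498.15, minus), chr8:120736358-120756694 (Irf8, ENSMUSG00000041515.10, plus) and chr14:55603571-55610030 (Irf9, ENSMUSG00000002325.15, plus).

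Levels are unique molecular identifiers (UMIs) per 1000000 UMIs of the same cells (CPM), summed over the cells of a class in a library, with exact 95% intervals that cover counting error only. The assay reads each gene through its own probes, so levels of different genes are not compared, and fewer expressing cells cannot be told apart from less RNA per cell in a sum. The libraries held 6329 to 10032 cells and 26356819 to 78722763 UMIs, with IRF3/7 the shallowest at a median of 3168 UMIs per cell against 6040 to 7502 in the others. IRF3/7 also stood apart in its cells. The class Infl_Mono (inflammatory monocytes) made up 4335 of its 5035 monocytes and macrophages, against 93 of 7614 in CTRL, 130 of 7378 in COX2i and 764 of 8801 in COX2i + 5-AZA, and a comparison over all monocytes and macrophages therefore compares different mixtures. Class names are the authors' own. For 16 of the 17 names at least 2 of the fixed markers were highest in that class, and the remaining name, Monocyte_1, had 1 of 4. No whole cell barcode was shared between libraries, while 4830 of 29259 droplet barcodes occurred in more than 1 library, which were run together.

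The overexpressed genes were checked first. Irf7 stood at 14909.5 CPM in the class Myofibrobl of the IRF3/7 library, against 8.20 CPM in CTRL, 19.2 in COX2i and 67.1 in COX2i + 5-AZA. Irf3 stood at 584 CPM in the same cells, against 31.2 in CTRL, 35.1 in COX2i and 24.5 in COX2i + 5-AZA. These were the highest levels of both genes anywhere in the data, with log2 ratios of IRF3/7 to CTRL of 10.83 (95% interval 10.51 to 11.17) for Irf7 and 4.22 for Irf3, whose interval began at 4.05. The class is the non-immune one of the sort, high in the collagen genes Col1a2 and Col3a1 and low in Ptprc, the CD45 gene, at 18.3 to 37.4 CPM. Melanocyte markers that could be read were near 0 in it, Pmel at no more than 1.3 CPM, so tumour cells and fibroblasts cannot be told apart there by these genes.

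Irf7 was found in 98.8% of the 172 Myofibrobl cells of IRF3/7 and Irf3 in 92.4%. The Irf7 level of single cells had a median of 13276 CPM, a 5th percentile of 714 and a 95th percentile of 34841. The cells were 2.72% of the library and held 17.0% of its UMIs, 51.1% of its Irf7 UMIs and 71.8% of its Irf3 UMIs. Over all cells together Irf3 was therefore higher in IRF3/7 than in CTRL, with a log2 ratio of 1.73 (1.66 to 1.80), while without Myofibrobl the ratio was 0.11 (0.01 to 0.22). For Irf7 the ratio was 6.32 with and 5.36 (5.32 to 5.41) without that class.

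Irf7 was also high in the immune cells of IRF3/7, where the probes cannot tell the host gene from the vector. It stood at 3354 CPM in Infl_Mono, 22.5% of its Myofibrobl level, and at 2929.6 CPM in cDC2, 19.6% of it. Genes that mark the Myofibrobl class were set beside it as a measure of RNA from those cells found elsewhere. Col1a2, Col3a1, Sparc and Serpinh1 stood in Infl_Mono at 0.46% to 0.93% of their Myofibrobl level, far below the share of Irf7. Irf3, carried by the companion vector, stood in Infl_Mono at 7.49% of its Myofibrobl level, at 43.7 CPM. In Infl_Mono of CTRL it was at 28.9 CPM (14 UMIs), a log2 ratio of 0.60 (-0.16 to 1.48) that size factors of the class put at 0.88 (0.12 to 1.76), and in all monocytes and macrophages of CTRL at 43.0 CPM. When the 499 Infl_Mono cells that held a UMI of any tumour or stromal marker were left out, Irf7 in the other 3836 was at 3361 CPM. NK cells of the library had Irf7 at 971 CPM, 6.51% of the Myofibrobl level, and its 8 T_CD8 cells held 10 Irf7 UMIs in all.

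The mix of both genes differed between classes. Irf3 made up 3.77% (3.63 to 3.91) of the Irf3 and Irf7 UMIs in Myofibrobl, 1.29% (1.19 to 1.39) in Infl_Mono, 1.64% (1.26 to 2.09) in cDC2 and 6.42% (5.41 to 7.56) in NK cells. Were every Irf3 UMI in Infl_Mono to come from Myofibrobl RNA at that ratio, 33.3% of the Irf7 UMIs there would come with it, and 42.6% in cDC2. In NK cells the same sum exceeds the measured Irf7, at 175%. The sum assumes the Myofibrobl ratio of Irf3 to Irf7, which was not tested elsewhere, so it is not read as a limit in any class. How much of the immune Irf7 signal was vector RNA was not tested.

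**Figure D1:**
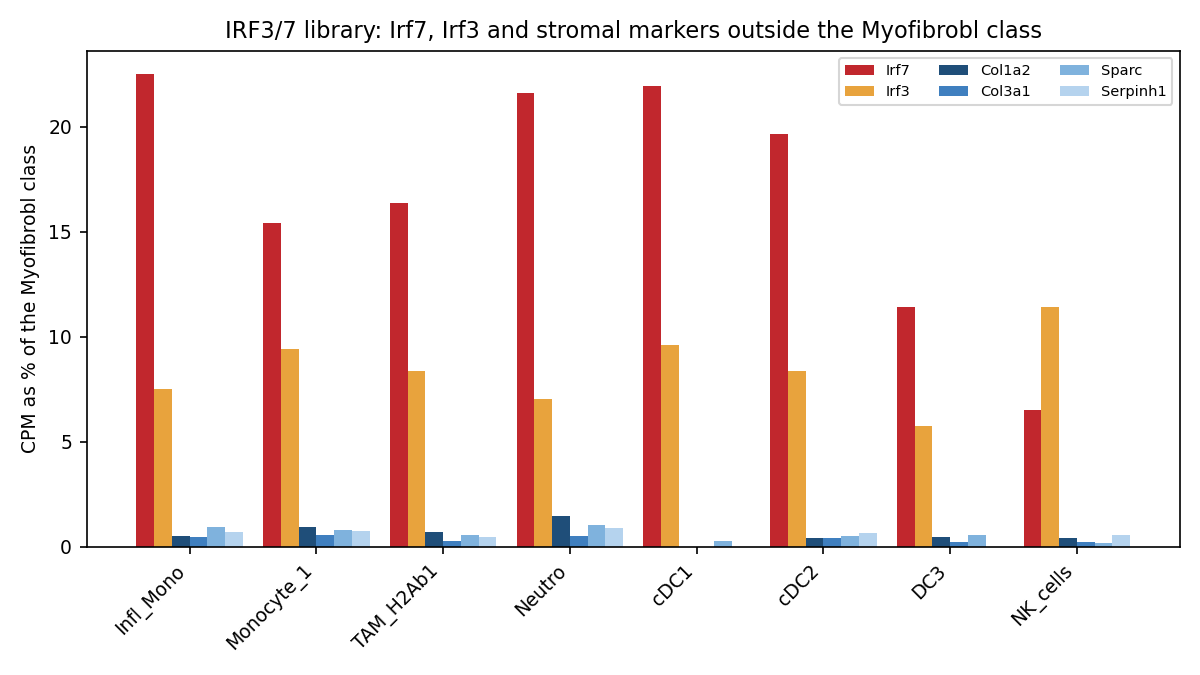
Bars give the CPM of Irf7, Irf3 and 4 marker genes of the Myofibrobl class in 8 other classes of the IRF3/7 library (horizontal axis), as a percentage of the gene's CPM in Myofibrobl (vertical axis, from 0). In Infl_Mono Irf7 sits at 22.5% and Irf3 at 7.49%, above the 4 marker genes at 0.46% to 0.93%.

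In monocytes and macrophages, the largest set of cells, 6 of the 8 members (Irf1, Irf2, Irf5, Irf7, Irf8 and Irf9) were at least 2-fold higher in IRF3/7 than in CTRL. Among all 10171 genes with 200 UMIs in both libraries together, 8.22% were at least 2-fold higher and 29.1% at least 2-fold lower. In COX2i against CTRL only Irf1 was at least 2-fold higher, at a ratio of 2.01, where 1.37% of genes were higher and 2.55% lower by this measure. In COX2i + 5-AZA against CTRL, 3 members (Irf1, Irf7 and Irf8) were at least 2-fold higher, against 4.42% of genes higher and 7.64% lower. In COX2i + 5-AZA against COX2i, Irf1 and Irf7 were, against 4.58% of genes higher and 7.34% lower. No member was at least 2-fold lower in any of the 4 comparisons. Weighted to the class mix of CTRL, over 3 classes of which TAM_cycling (20 cells in IRF3/7) carried nearly all the weight, 2 members were at least 2-fold higher in IRF3/7, Irf7 at 4.38 and Irf1 at 2.10 on the log2 scale. With cells of more than 2000 genes only, 0 members were in COX2i. The first 3 comparisons share the CTRL library. Scaled by median-of-ratios size factors, every IRF3/7 ratio to CTRL is 0.52 higher on the log2 scale, and the share of higher genes among those past 2-fold is 47.3% against 22.0% as counted here. For COX2i + 5-AZA against COX2i the ratios are 0.19 higher and that share is 53.4% against 38.4%. The members past 2-fold in IRF3/7 are all on the higher side under both scalings.

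**Figure D2:**
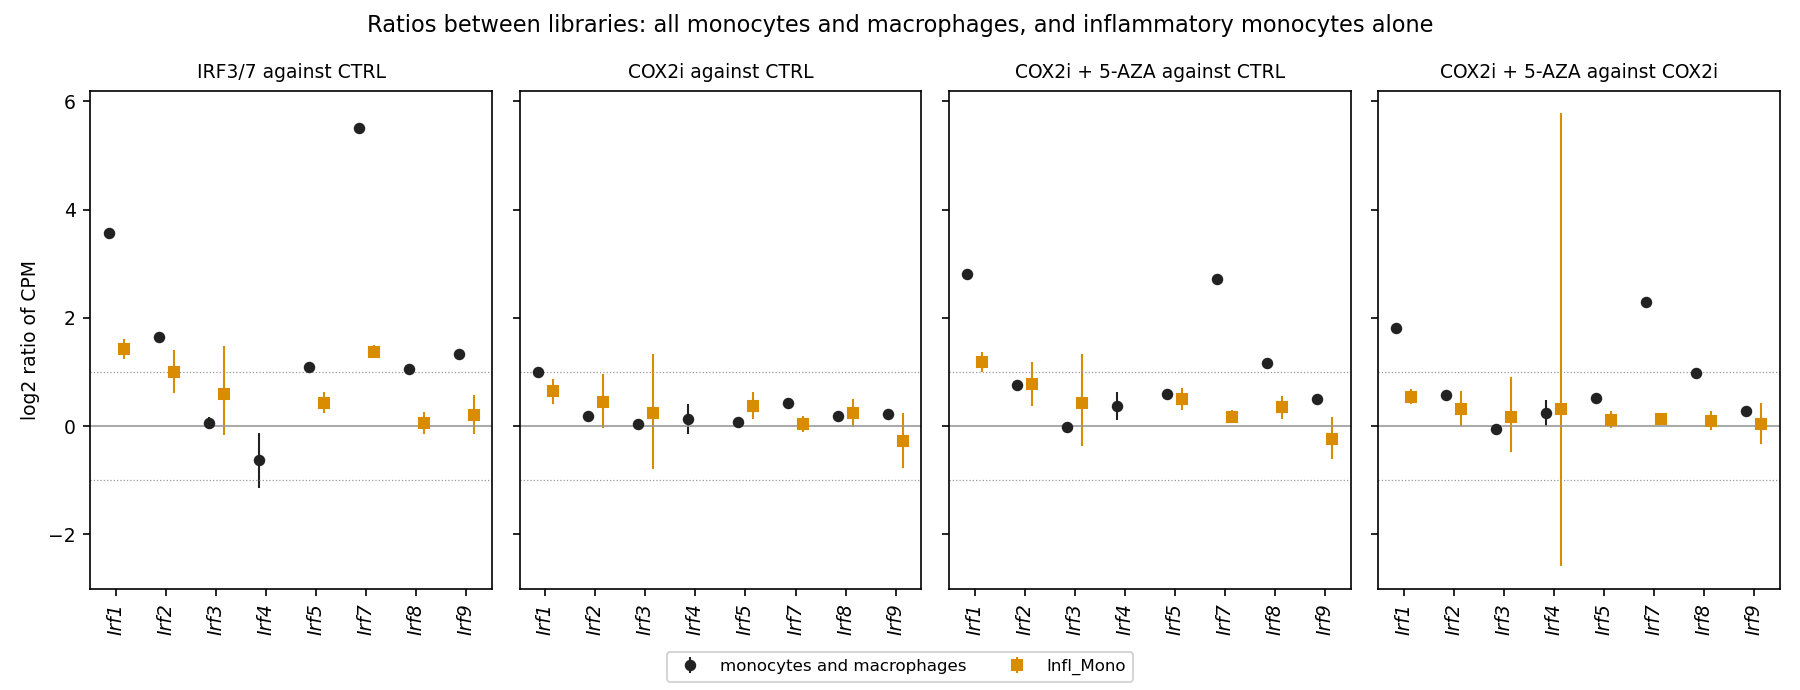
Log2 ratio of CPM (vertical axis) for each of the 8 members in the 4 comparisons, as circles for all monocytes and macrophages and squares for Infl_Mono alone, with 95% counting intervals as lines and 2-fold as dotted lines; Irf4 has no square against CTRL, where Infl_Mono held no Irf4 UMI. In IRF3/7 against CTRL the circles of Irf7 and Irf1 stand highest, at 5.52 and 3.57, with their squares at 1.37 and 1.43, and the circles of Irf3 lie within 0.06 of 0 in all 4 panels.

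Irf7 is the amplifier of type I interferon. In monocytes and macrophages it stood at 69.3 CPM in CTRL, 3170.3 in IRF3/7, 92.8 in COX2i and 455 in COX2i + 5-AZA. The log2 ratio to CTRL was 5.52 (5.47 to 5.56) in IRF3/7, 0.42 (0.36 to 0.48) in COX2i and 2.71 (2.66 to 2.76) in COX2i + 5-AZA. The IRF3/7 ratio holds differences within classes and the different class mix together, and Infl_Mono was the class with the most Irf7 in CTRL as well. Within Infl_Mono, Irf7 stood at 1295 CPM in CTRL, 3354 in IRF3/7, 1326 in COX2i and 1456 in COX2i + 5-AZA, and the ratio of IRF3/7 to CTRL was 1.37 (1.26 to 1.49). The same class differed from CTRL by 0.03 (-0.12 to 0.19) in COX2i and by 0.17 (0.05 to 0.29) in COX2i + 5-AZA.

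Cells outside Infl_Mono showed larger differences in Irf7. In cDC2 it stood at 97.0 CPM in CTRL, 2929.6 in IRF3/7, 153 in COX2i and 483 in COX2i + 5-AZA. Macrophages also had more in COX2i + 5-AZA than in CTRL. In TAM_cycling, dividing tumour-associated macrophages (TAMs), Irf7 stood at 41.8 CPM in CTRL, 58.1 in COX2i and 250.2 in COX2i + 5-AZA, and in TAM_C1q at 59.1, 60.5 and 162. Neutrophils had 107 CPM in CTRL and 824 in COX2i + 5-AZA, a log2 ratio of 2.95 (2.44 to 3.50). Myofibrobl cells of the mCherry tumours, without any IRF vector, had a ratio of 3.03 (2.65 to 3.43) in COX2i + 5-AZA against CTRL.

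With each cell thinned to 2000 UMIs, the share of TAM_cycling cells with an Irf7 UMI was 5.60% in CTRL, 9.26% in COX2i and 29.2% in COX2i + 5-AZA. In Infl_Mono the shares were 71.1%, 85.8% and 81.8%, and 98.5% in IRF3/7. Unthinned, the TAM_cycling shares were 21.5%, 28.3% and 64.5%. Thinned shares in the non-immune Myofibrobl class were 1.29% in CTRL, 2.54% in COX2i and 11.9% in COX2i + 5-AZA, and 97.1% in IRF3/7, where the class carries the vector. What part of these shares is the cells' own RNA and what part free RNA was not tested. The ratio was above 0 beyond counting error in all 9 classes with 50 cells in both libraries for COX2i + 5-AZA against COX2i, in 8 of 8 for COX2i + 5-AZA against CTRL, in 5 of 7 for COX2i against CTRL and in 3 of 3 for IRF3/7 against CTRL. Among the 5, Ctsk_Macro (macrophages with cathepsin K) had the largest ratio, 2.68 (2.25 to 3.12).

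Irf3, the constitutive sensor-driven factor, was the flattest member outside the vector-bearing class. Its level in monocytes and macrophages was 43.0 CPM in CTRL, 44.6 in IRF3/7, 44.3 in COX2i and 42.6 in COX2i + 5-AZA. All 4 log2 ratios lay between -0.06 and 0.05, and every interval included 0, the widest from -0.06 to 0.17, although size factors put the IRF3/7 ratio at 0.58. Over single classes, 0 of 7 in COX2i and 0 of 8 in COX2i + 5-AZA differed from CTRL beyond counting error. For COX2i + 5-AZA against COX2i 1 of 9 did, Myofibrobl at -0.52, or -0.48 (-0.87 to -0.11) with size factors of that class. The top class exceeded the bottom class by a log2 of 1.01 in CTRL, 0.81 in COX2i and 1.45 in COX2i + 5-AZA, and in the latter 2 no neighbours in the order were apart beyond counting error. Classes farther apart in the order could still differ, as NK cells of COX2i + 5-AZA stood at 67.0 CPM (55.8 to 79.7) and TAM_C1q at 43.9 (40.5 to 47.5). The activity of IRF3, which rests on phosphorylation, is not read by this assay.

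Irf9, the DNA-binding part of ISGF3, stood at 60.8 CPM in monocytes and macrophages of CTRL, 154 in IRF3/7, 71.1 in COX2i and 86.0 in COX2i + 5-AZA. The log2 ratios to CTRL were 1.34 (1.27 to 1.41), 0.23 (0.16 to 0.29) and 0.50 (0.44 to 0.56). Within Infl_Mono the ratio of IRF3/7 to CTRL was 0.21 (-0.15 to 0.58), and 0.49 (0.14 to 0.86) with size factors of that class, so the scaling decides whether it lies beyond counting error. In cDC2 it was 0.95 (0.70 to 1.20). The widest ratios of Irf9 were in Myofibrobl, which stood at 12.5 CPM in CTRL, 85.6 in IRF3/7, 25.1 in COX2i and 39.1 in COX2i + 5-AZA.

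Irf1, the interferon-gamma-induced member, was higher than in CTRL in every class and group that could be compared. In monocytes and macrophages it stood at 104 CPM in CTRL, 1237 in IRF3/7, 209 in COX2i and 733 in COX2i + 5-AZA. The log2 ratios to CTRL were 3.57 (3.53 to 3.61), 1.00 (0.96 to 1.05) and 2.81 (2.77 to 2.85), and COX2i + 5-AZA exceeded COX2i by 1.81 (1.78 to 1.84). Within Infl_Mono, Irf1 differed from CTRL beyond counting error in every group. It stood there at 489 CPM in CTRL, 1315 in IRF3/7, 763 in COX2i and 1109 in COX2i + 5-AZA, with ratios to CTRL of 1.43 (1.24 to 1.62), 0.64 (0.41 to 0.87) and 1.18 (0.99 to 1.37).

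Across classes the log2 ratios of Irf1 to CTRL ran from 1.39 to 2.53 in IRF3/7 (3 of 3 classes above 0 beyond counting error), from 0.64 to 1.95 in COX2i (7 of 7) and from 1.18 to 3.38 in COX2i + 5-AZA (8 of 8). The 9 classes of COX2i + 5-AZA against COX2i ran from 0.41 to 1.79. The highest ratio, 3.38 in COX2i + 5-AZA against CTRL, was that of neutrophils. They stood at 198 CPM in CTRL, 1486 in IRF3/7 (49 cells), 155 in COX2i (5 cells) and 2060 in COX2i + 5-AZA. TAM_C1q, macrophages rich in complement genes, stood at 90.4 CPM in CTRL, 152 in COX2i and 525 in COX2i + 5-AZA. cDC2 stood at 185 CPM in CTRL, 1070.1 in IRF3/7, 468 in COX2i and 912 in COX2i + 5-AZA.

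Irf2, which binds the same element as IRF1, moved less. It stood at 68.8 CPM in monocytes and macrophages of CTRL, 214 in IRF3/7, 78.0 in COX2i and 116 in COX2i + 5-AZA, with log2 ratios to CTRL of 1.64, 0.18 and 0.75, all above 0 beyond counting error. In Infl_Mono the ratio of IRF3/7 to CTRL was 0.99 (0.61 to 1.40), and in cDC2 it was 0.49 (0.23 to 0.74). Over the 8 classes of COX2i + 5-AZA against CTRL it ran from 0.16 to 0.81, and 7 were above 0 beyond counting error. For COX2i against CTRL, 3 of 7 classes were.

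Irf5, the factor behind Toll-like receptors, was spread over all myeloid classes and low in Myofibrobl, at 22.2 to 35.7 CPM. In monocytes and macrophages it stood at 278 CPM in CTRL, 589 in IRF3/7, 293 in COX2i and 421 in COX2i + 5-AZA. The log2 ratios to CTRL were 1.08 (1.05 to 1.12), 0.08 (0.05 to 0.11) and 0.60 (0.57 to 0.63). The 7 classes of COX2i against CTRL ran from 0.04 to 0.72. In Infl_Mono the level was 454 CPM in CTRL, 614 in IRF3/7, 589 in COX2i and 640 in COX2i + 5-AZA, where the ratio of IRF3/7 to CTRL was 0.43 (0.24 to 0.63). The highest single-class level was that of cDC1 in COX2i + 5-AZA, at 1006 CPM.

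Irf8, the lineage factor of cDC1 and monocytes, was highest in cDC1, natural killer (NK) cells and DC3. In cDC1 it stood at 1897 CPM in CTRL (16 cells), 2770.2 in IRF3/7 (38 cells), 2118 in COX2i and 3177 in COX2i + 5-AZA. In NK cells it stood at 1572 CPM in CTRL (11 cells), 2196 in IRF3/7, 1936 in COX2i and 1707 in COX2i + 5-AZA. These classes kept a high level in all 4 libraries. In monocytes and macrophages Irf8 stood at 206 CPM in CTRL, 428 in IRF3/7, 236 in COX2i and 465 in COX2i + 5-AZA, with log2 ratios to CTRL of 1.05 (1.01 to 1.10), 0.19 (0.16 to 0.23) and 1.17 (1.14 to 1.20). Within Infl_Mono the IRF3/7 ratio was 0.06 (-0.14 to 0.26) and 0.34 (0.14 to 0.54) with size factors of that class. Weighted to the class mix of CTRL, the ratio over monocytes and macrophages was 0.73, under the 2-fold counted as a change. That weighting rests to 95.8% on TAM_cycling, which had 20 cells in IRF3/7. In COX2i + 5-AZA the macrophage classes themselves were higher, by 0.75 (0.70 to 0.80) in TAM_C1q, 1.29 (1.20 to 1.38) in TAM_Spp1 and 1.18 (1.12 to 1.25) in TAM_cycling.

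The cDC2 class had the largest ratios of Irf8 to CTRL. It stood at 88.0 CPM in CTRL, 407 in IRF3/7, 237 in COX2i and 481 in COX2i + 5-AZA. The log2 ratios to CTRL were 2.21 (1.99 to 2.43), 1.43 (1.22 to 1.64) and 2.45 (2.24 to 2.67). Markers of plasmacytoid dendritic cells (pDCs), which are known for high Irf8, moved only in part with these values. Siglech and Ccr9 were highest in IRF3/7, whereas Irf8 was highest in COX2i + 5-AZA. Tcf4 was not above CTRL in either drug group. Siglech stood in cDC2 at 1.08 CPM in CTRL, 79.3 in IRF3/7, 6.86 in COX2i and 23.6 in COX2i + 5-AZA, and Ccr9 at 2.15, 29.7, 2.69 and 10.7. The other 2 listed pDC markers are also found in other cells, and Bst2 stood at 348, 2865, 475 and 861 CPM and Tcf4 at 97.3, 132, 85.3 and 86.1. Cells with a UMI of Siglech or Ccr9 numbered 3 of 645 in CTRL, 14 of 390 in IRF3/7, 7 of 666 in COX2i and 5 of 261 in COX2i + 5-AZA. The 14 cells of IRF3/7 held 178 of the 534 Irf8 UMIs of the class. Without these cells, a setting chosen after seeing the data, Irf8 stood at 84.3 CPM in CTRL, 282 in IRF3/7, 231 in COX2i and 416 in COX2i + 5-AZA, and the ratios to CTRL were 1.74 (1.50 to 1.98), 1.45 (1.24 to 1.67) and 2.30 (2.08 to 2.53). Irf4, the other lineage factor, moved otherwise in this class. It stood in cDC2 at 74.0 CPM in CTRL, 31.3 in IRF3/7, 104 in COX2i and 64.8 in COX2i + 5-AZA. Its log2 ratios to CTRL were -1.24 (-1.76 to -0.75), 0.50 (0.25 to 0.75) and -0.19 (-0.57 to 0.18), and COX2i + 5-AZA against COX2i was -0.69 (-1.05 to -0.34).

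Irf4 and Irf8 were also counted cell by cell. At 2000 UMIs, Irf8 was found in 13.6% of cDC2 cells in CTRL, 41.1% (35.9 to 46.5) in IRF3/7, 25.6% (22.3 to 29.2) in COX2i and 49.0% (42.6 to 55.4) in COX2i + 5-AZA, and the interval of CTRL, which ended at 16.6%, lay below the other 3. Irf4 was found in 9.69%, 4.66% (2.69 to 7.46), 13.6% and 13.5% (9.46 to 18.4), and the intervals of CTRL, COX2i and COX2i + 5-AZA overlapped. The share with Irf4 thus went with the CPM in IRF3/7, but in COX2i + 5-AZA it lay above CTRL while the CPM lay below, and no order is read from it. Unthinned, Irf8 was found in 25.9%, 51.3%, 43.2% and 70.9% of the cells. Background, as the share in Myofibrobl at the same depth, was 1.85% to 6.92% for Irf8 and 0% to 0.63% for Irf4, where IRF3/7 had 0 of 170 cells, which by 3 counts of the total allows a share of up to 1.76%.

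Of the 609 cDC2 cells of CTRL with 2000 UMIs, 55 held Irf4 alone, 79 Irf8 alone and 4 both. In IRF3/7 these were 12, 137 and 4 of 343 cells, in COX2i 61, 138 and 26 of 640, and in COX2i + 5-AZA 15 of 245 held Irf4 alone, 18 held both and 110 held neither. Among cDC1 cells, 0 of 77 in COX2i and 0 of 60 in COX2i + 5-AZA held Irf4 at this depth, which by the same measure allows a share of up to 3.90% and 5.00%. Irf8 was found there in 92.2% and 96.7%. The classes were made by clustering these cells on their most variable genes, which may hold Irf4 and Irf8, so levels across classes are a description.

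**Figure D3:**
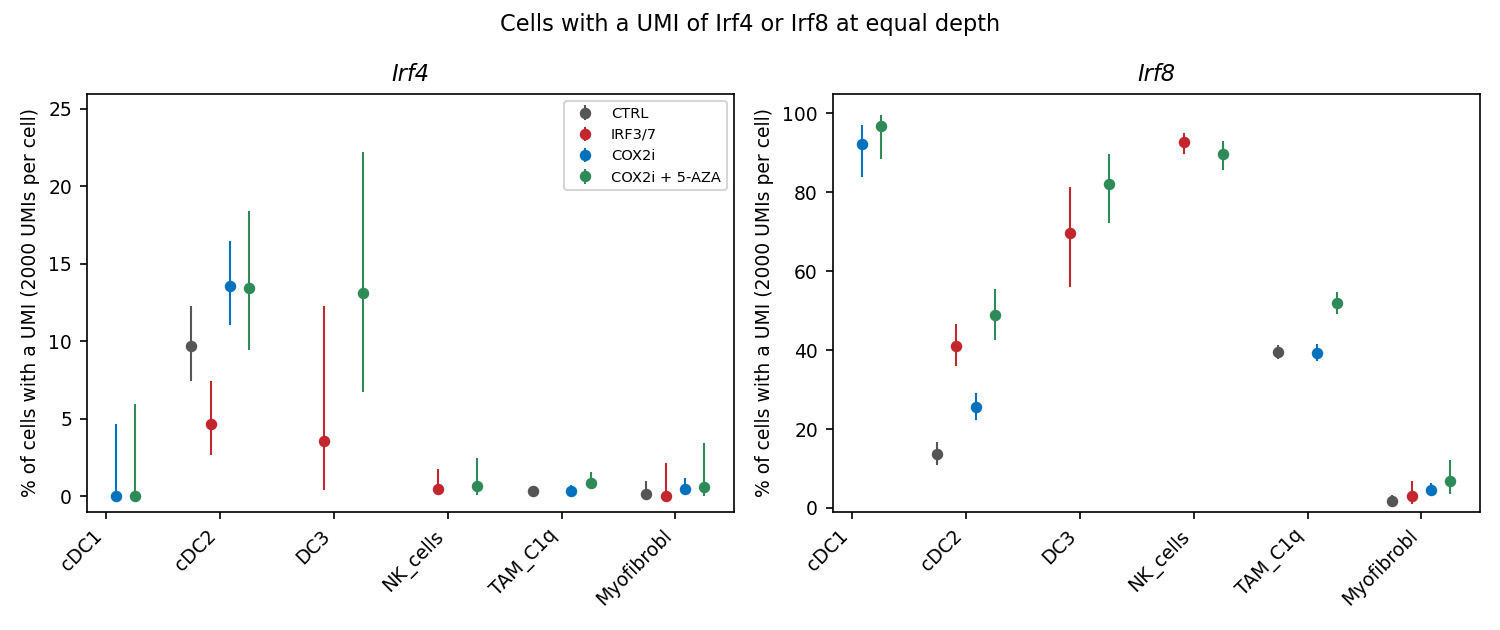
Share of cells with an Irf4 UMI and with an Irf8 UMI (percent) in 6 classes after thinning each cell to 2000 UMIs, with exact 95% intervals as lines and 1 colour for each library that had at least 50 cells of the class. In cDC2 the Irf8 share runs from 13.6% in CTRL to 49.0% in COX2i + 5-AZA, while the Irf4 share stays between 4.66% and 13.6%.

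Irf4 was low in most other classes. In monocytes and macrophages it stood at 3.62 CPM in CTRL, 2.35 in IRF3/7, 3.97 in COX2i and 4.68 in COX2i + 5-AZA, with log2 ratios to CTRL of -0.62 (-1.14 to -0.14), 0.13 (-0.14 to 0.41) and 0.37 (0.11 to 0.63). With size factors the IRF3/7 ratio is 0.52 higher and its interval includes 0, so the scaling decides whether it lies beyond counting error. Irf4 was listed at 0 in Infl_Mono and in neutrophils of CTRL. The class Macro held more, 52.4 CPM in CTRL and 35.5 in COX2i + 5-AZA, and DC3 held 137 CPM in CTRL (10 cells), 33.7 in IRF3/7, 72.4 in COX2i (28 cells) and 87.0 in COX2i + 5-AZA. T cells, where IRF4 is known from activation, were almost absent, and the 8 T_CD8 cells of IRF3/7 held Irf4 at 353 CPM.

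Taking the classes with at least 50 cells in CTRL in order, Irf7 fell from 1295 CPM in Infl_Mono to 8.20 in Myofibrobl, a log2 span of 7.30, and 1 of 8 pairs of neighbours was not apart beyond counting error. Irf1 ran from 489 CPM in Infl_Mono to 86.5 in TAM_cycling, with 4 of 8 such pairs. Irf5 ran from 454 in Infl_Mono to 22.2 in Myofibrobl, with 4 of 8. Irf2 ran from 114 CPM in cDC2 to 24.4 in Myofibrobl, with 5 of 8. In the control library, Infl_Mono led the order of Irf7, Irf8 and Irf9 beyond counting error, while its lead was within counting error for Irf1 (over Macro) and Irf5 (over cDC2). In COX2i + 5-AZA the top class was Neutro for Irf1 and cDC1 for Irf5, both beyond counting error, while DC3 and cDC2 were not apart for Irf4 (0.43, -0.19 to 1.01).

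**Figure D4:**
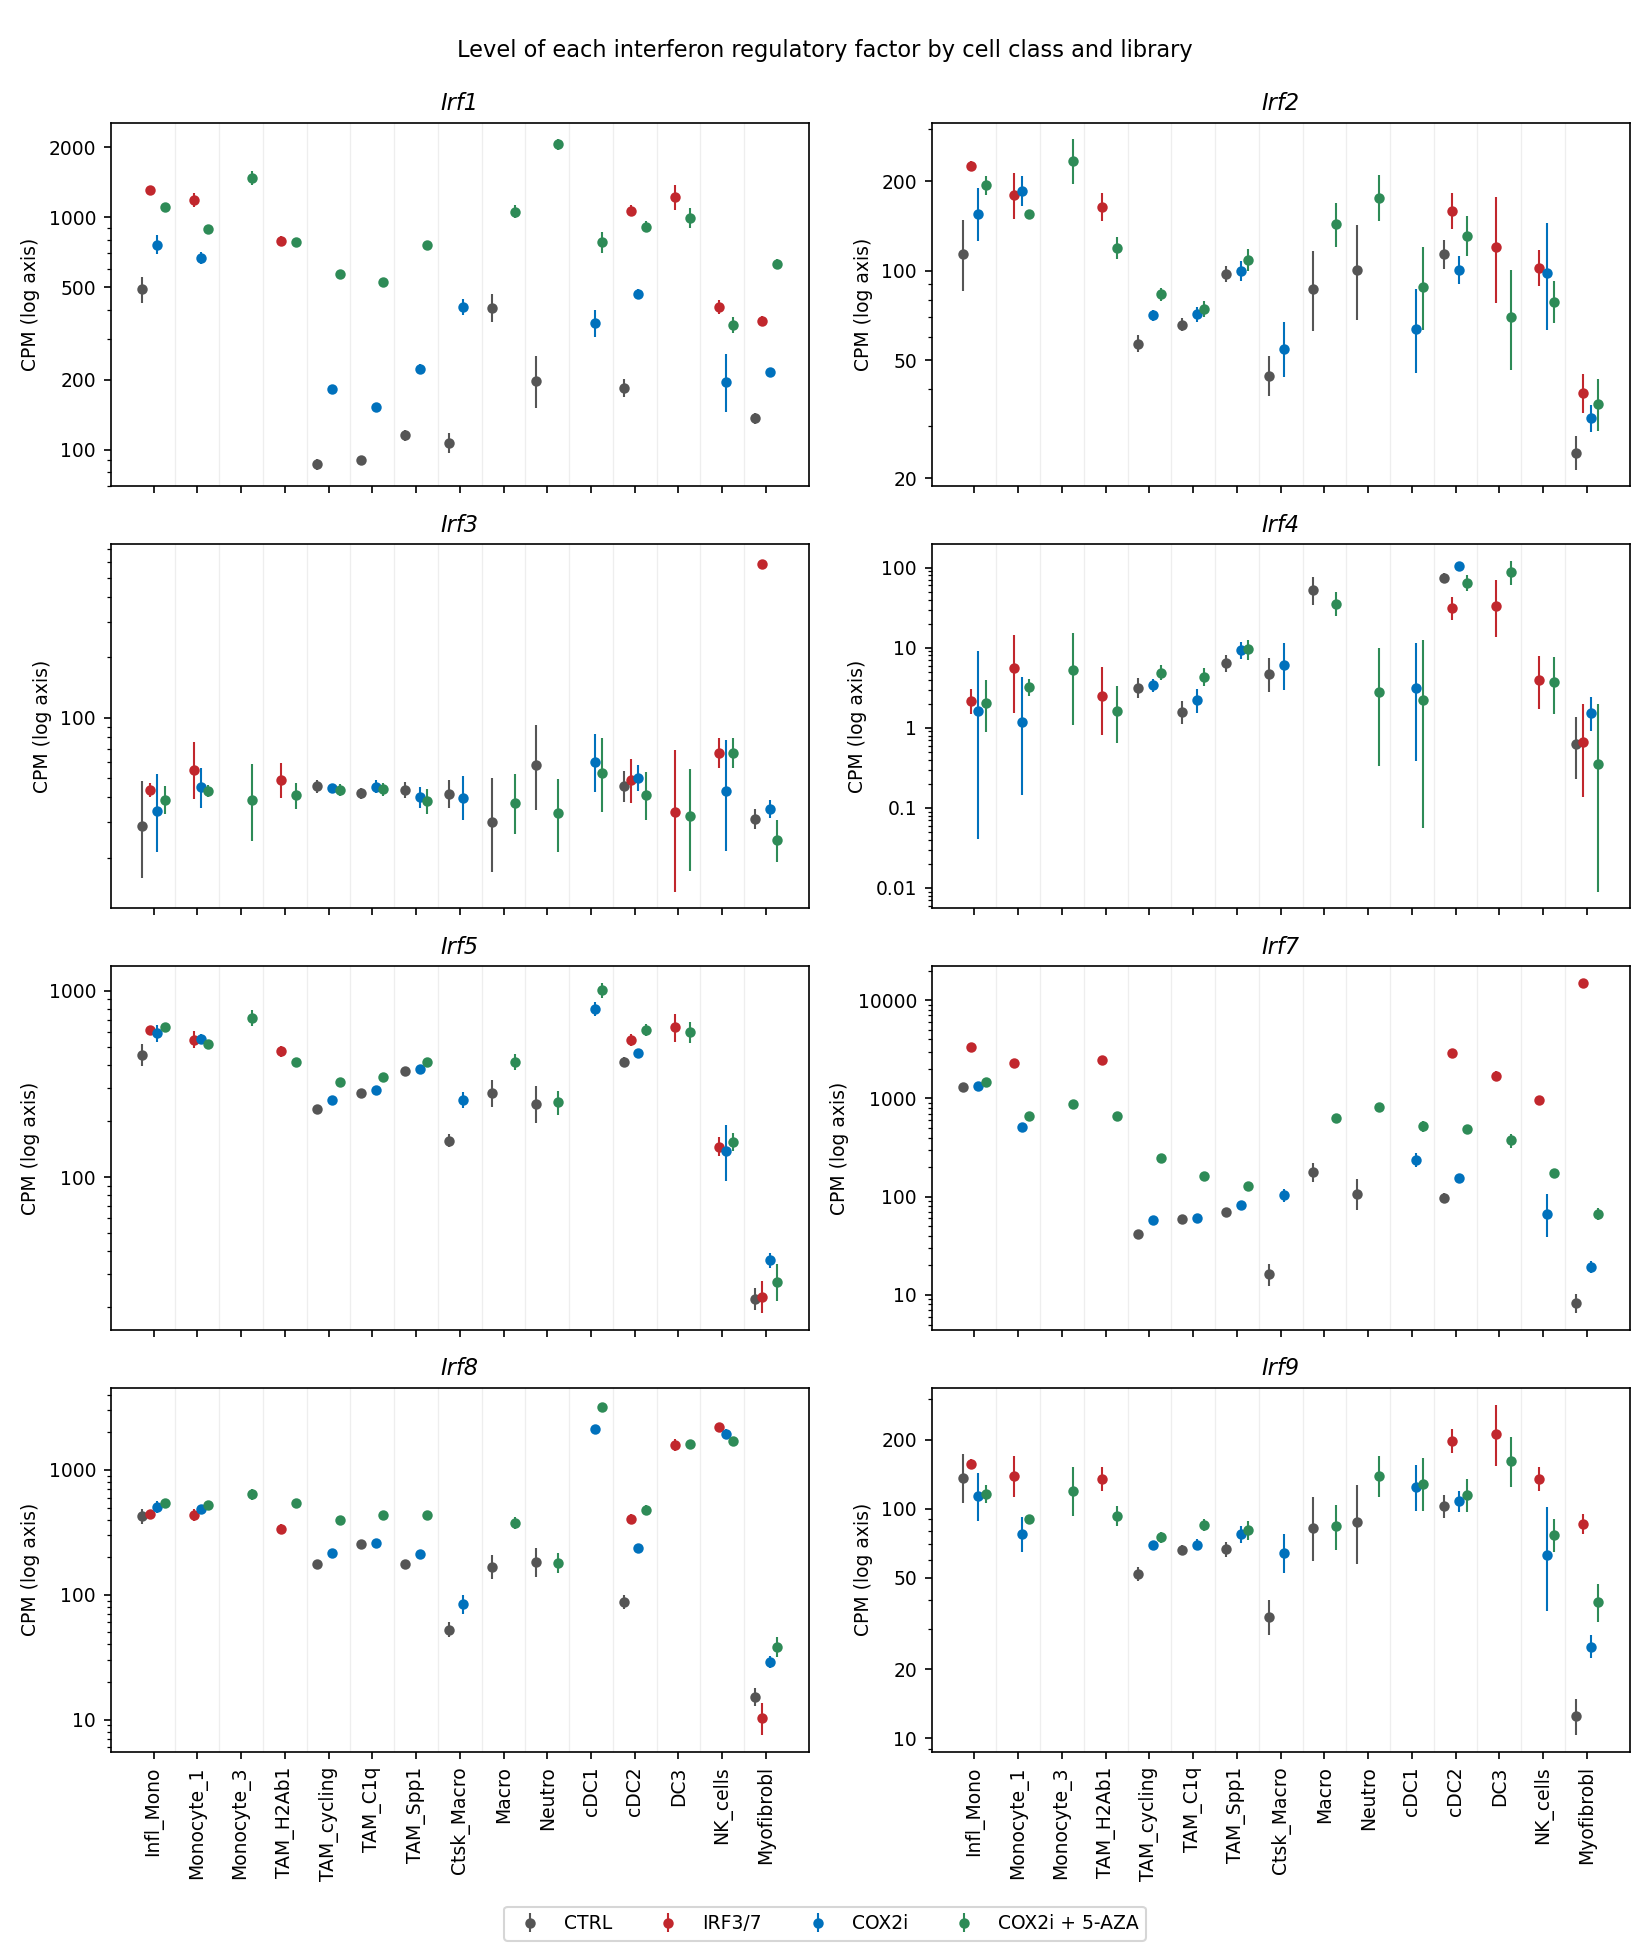
Level of each of the 8 members (CPM, log axis, 1 panel each) in the classes with at least 50 cells in a library, with exact 95% counting intervals as lines and 1 colour for each library; values of 0 are not drawn. Irf3 lies between 24.5 and 67.0 CPM in every class with 50 cells outside the IRF3/7 library, whereas Irf7 runs from 8.20 CPM in Myofibrobl to 1295 in Infl_Mono in CTRL alone.

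The genes around the family were followed in monocytes and macrophages by lists, with the median log2 ratio beside that of all genes, which was -0.51 in IRF3/7, 0.03 in COX2i and -0.15 in COX2i + 5-AZA against CTRL, and -0.19 for COX2i + 5-AZA with COX2i as the base. List values pool all monocyte and macrophage classes, so they also hold the different class mix of the libraries. None was computed within a single class. Upstream of IRF3 and IRF7, 10 of 23 sensors, adaptors and kinases were at least 2-fold higher and 1 lower in IRF3/7 than in CTRL, with a median of 0.77. In COX2i it was 1 of 23 (median -0.01), in COX2i + 5-AZA 3 of 23 (0.17), and 2 of 23 (0.20) against COX2i. Zbp1, a sensor of Z-form nucleic acid, led the list in all 4 comparisons, at 4.56, 1.04, 2.87 and 1.83. Mavs, the adaptor of the RIG-I-like receptors, was lowest in IRF3/7, at -1.24, and Tlr8 and Tlr7 were lowest in COX2i (-0.50) and COX2i + 5-AZA (-0.78) against CTRL.

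Of 10 interferon receptor and ISGF3 partner genes, 3 were at least 2-fold higher in IRF3/7 (median 0.37), 1 in COX2i (0.05) and 2 in COX2i + 5-AZA (0.14) than in CTRL. None of them was a receptor chain. Stat2, which binds IRF9, stood at log2 ratios of 3.65, 0.51 and 1.55, and the kinase gene Jak2 at 2.20 in IRF3/7. Ifnar1, a chain of the type I interferon receptor, was lowest in IRF3/7 at -0.56, close to the median of all genes there, -0.51. Ifngr1 was lowest in COX2i + 5-AZA against CTRL at -0.78. Of 20 interferon genes listed, Ifng was the only member in the table and had under 200 UMIs, and the other interferon genes were not analysed here.

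Genes known as targets of IRF3, IRF7 and ISGF3 were at least 2-fold higher in 18 of 18 cases in IRF3/7, with a median of 5.36, in 1 of 18 in COX2i (0.35) and in 17 of 18 in COX2i + 5-AZA (2.14) against CTRL. Against COX2i, COX2i + 5-AZA had 16 of 18 (1.71). In IRF3/7 they ran from Oas1a, an antiviral RNA sensor, at 3.08 to Ifi44 at 6.69. The values pool classes that differ in mix, with Infl_Mono the main class in IRF3/7 and rare in CTRL. Rsad2 of this list is also a fixed marker of Infl_Mono. In the drug groups the chemokine gene Cxcl10 led, at 2.03 in COX2i and 4.54 in COX2i + 5-AZA against CTRL. Known IRF1 targets were at least 2-fold higher in 23 of 23 cases in IRF3/7 (3.20), in 9 of 23 in COX2i (0.83), in 22 of 23 in COX2i + 5-AZA (2.77) and, against COX2i, in 18 of 23 (1.64). Gbp2b, an interferon-induced GTPase, led them in the drug groups at 2.72 in COX2i and 6.04 in COX2i + 5-AZA, and Socs1, a brake on cytokine receptors, in IRF3/7 at 5.09. In COX2i, then, the IRF1 list had 9 genes past 2-fold and the IRF3, IRF7 and ISGF3 list had 1; the difference between the lists was not tested. Nlrc5, the activator of MHC class I genes, stood at 3.20, 0.71 and 1.88 against CTRL.

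Genes tied to IRF8 and IRF4 moved in both directions. In IRF3/7 6 of 16 were at least 2-fold higher and 2 lower (median 0.71), with Batf2, a partner of IRFs, at 4.19. Mgl2, a lectin of cDC2 and some macrophages, was lowest at -6.31 (-7.94 to -5.09). It held 5 UMIs in IRF3/7 and 1218 in CTRL, so it was counted only through CTRL. In COX2i 5 of 19 were higher and 0 lower (-0.01), led by the chemokine Ccl17 at 2.93, and in COX2i + 5-AZA 6 of 19 were higher and 1 lower (0.43), with Pdcd1lg2, the gene of PD-L2, at 5.43 and Tcf4 at -1.08. Against COX2i, 4 of 19 were higher and 0 lower (0.32). Among partners of IRF4 and IRF8, Batf3 stood at log2 ratios to CTRL of 2.91 in IRF3/7, 1.98 in COX2i and 2.64 in COX2i + 5-AZA. It held 158 UMIs in CTRL and 388, 711 and 1235 in those groups, so it was counted only through the groups where it was high. Spi1, the gene of PU.1, stood at 0.70, -0.01 and 0.29.

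Known IRF5 targets with 200 UMIs were at least 2-fold higher in 5 of 7 cases in IRF3/7 (median 2.11), 1 of 6 in COX2i (0.01), 5 of 7 in COX2i + 5-AZA (1.52) and 5 of 7 against COX2i (1.58). Il6 led in IRF3/7 at 4.38, with 326 UMIs there and 48 in CTRL, so it was counted only through the library where it was high. Nos2, the inducible nitric oxide synthase, led in COX2i + 5-AZA at 4.21 against CTRL and stood at 4.07 in IRF3/7. Of 12 genes listed as brakes on IRF proteins or on the receptors and signals above or below them, 6 were at least 2-fold higher in IRF3/7 (1.06), 1 in COX2i (0.24) and 3 in COX2i + 5-AZA (0.52) against CTRL, and 3 against COX2i (0.44). Usp18, which silences the type I interferon receptor and was also in the list of IRF3, IRF7 and ISGF3 targets, led in IRF3/7 at 5.56, and Socs1, also in the IRF1 list, in the drug groups at 1.25 and 4.03.

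**Figure D5:**
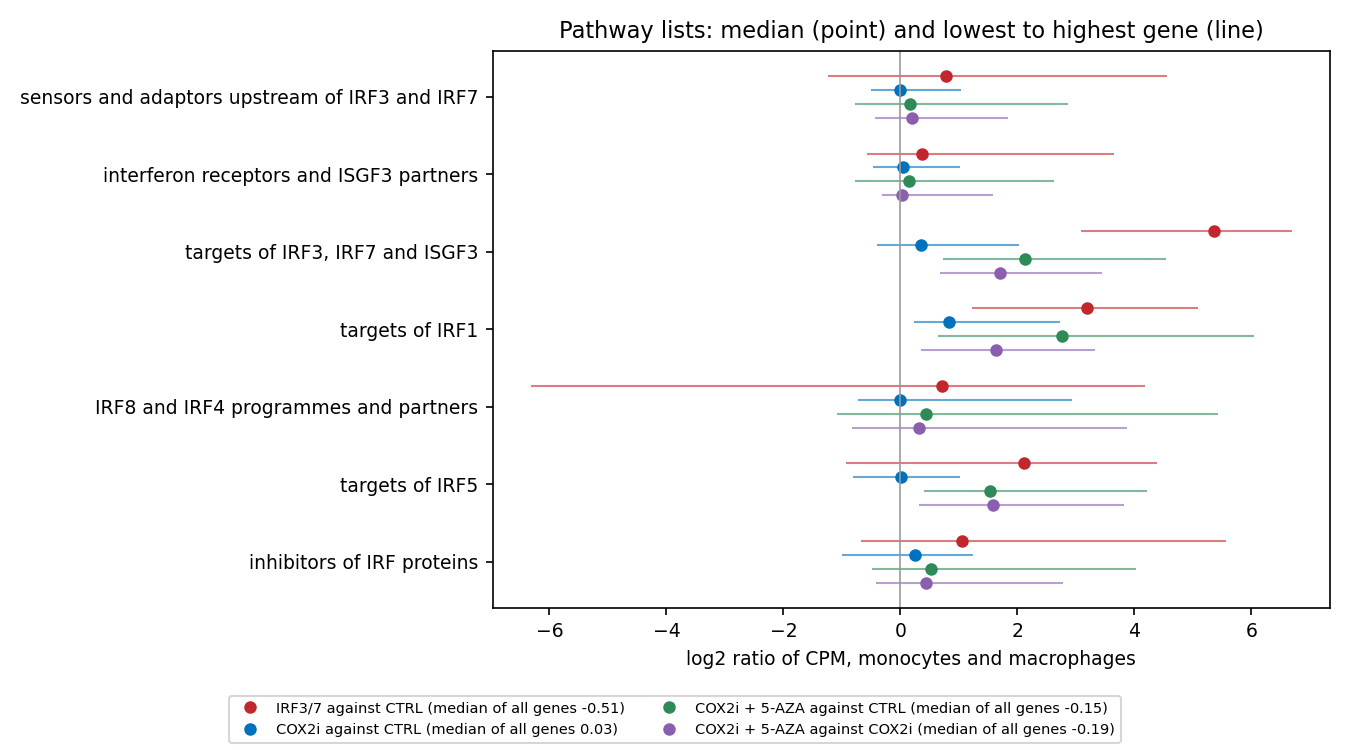
Median log2 CPM ratio (points) and lowest to highest gene (lines) of the 7 lists in monocytes and macrophages, with 1 colour for each of the 4 comparisons; the legend gives the median of all genes. Targets of IRF3, IRF7 and ISGF3 lie between 3.08 and 6.69 in IRF3/7 against CTRL, and around a median of 0.35 in COX2i against CTRL.

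The pattern of each member over the classes was set beside that of the other 11474 genes with 200 UMIs, as Pearson's r of log2(CPM + 1) over the classes of 50 cells or more in each library. These were 40 class and library units, or 33 for Irf3 and Irf7, where the IRF3/7 library was left out because of the vectors. Classes of 1 library share their depth and their free RNA, so r is a description. Irf7 was most like Trafd1 (r = 0.973), Parp9 (0.967) and Dtx3l (0.962). Irf1 was most like the immunity-related GTPase gene Irgm1 (0.926), Socs1 (0.916) and Cd274 (0.910), the gene of PD-L1. Irf9 was most like Sp140 (0.924), Irf5 like Snx20 (0.948) and Irf2 like Slfn2 (0.921). Irf8 was most like Sh3bp1 (0.891), and Irf4 like Jup (0.786), with the lectin gene Cd209a next but one (0.759). Irf3 had the least alike neighbour, Itpripl1 at 0.750. Of all 24 genes in the first 3 places of a member, 7 stayed there with Spearman's rho and 10 with classes of at least 100 cells, so most of these names depend on the measure.

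Among the members themselves, over the 33 units, Irf5 and Irf9 were the most alike pair (r = 0.871), followed by Irf1 and Irf7 (0.830), Irf7 and Irf9 (0.826) and Irf2 and Irf7 (0.825). Irf3 had r between -0.25 and 0.45 with the other members, and Irf4 between 0.01 and 0.36. Irf3 and Irf4 were thus the members whose level went least with the rest.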

How the data were processed

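CD45+ cells of 4 libraries (CTRL, IRF3/7, COX2i and COX2i + 5-AZA) were profiled with the 10x Genomics fixed RNA assay, in which pairs of probes read each gene. The deposited values are raw UMI counts, 1 for each gene in each cell, made by the authors with Cell Ranger 7.1.0 against mm10, kept for cells that passed their filters and restricted to genes seen in all their experiments. Mitochondrial and ribosomal genes were left out by the authors, and cell classes are theirs. From there, UMIs were summed per class and library and divided by the total UMIs of those cells (CPM). Ratios between libraries carry exact conditional intervals, CPM exact Poisson intervals and shares of cells Clopper-Pearson intervals, all at 95% and all for counting error only, and a share of 0 is given with the limit of 3 counts of the total. Monocytes and macrophages are the sum of the monocyte and macrophage classes. Genes needed 200 UMIs in both libraries together, classes 50 cells, and 2-fold counted as a change. A gene low in 1 library could pass that minimum through the library where it was high. Ifi44, Gbp2b, Batf3, Mgl2, Ccl17, Pdcd1lg2 and Il6 were among those that did, so list counts are descriptions. Size factors of single classes were added after seeing the data. Shares were taken after thinning cells to 2000 UMIs. No doublet caller was run. With 1 library per group no test was possible. Named genes were the 8 members, the genes of fixed lists with the highest or lowest ratio, named partners and the 3 genes most like each member. The members and lists were chosen with earlier results of these data known. Counting code was tested on simulated data. Software was Python 3.11.15, numpy 2.4.6, scipy 1.17.1, pandas 2.3.3 and matplotlib 3.10.9.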

Additional observations from a re-analysis of the deposited data

Results flagged for a closer look

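In 5 cases a member was higher in 1 cell class and lower in another under the same contrast, with both counting intervals away from 0; the difference between the classes was not tested, and each value rests on 1 library per group. Irf8 in IRF3/7 against CTRL had a log2 ratio of 2.21 in cDC2 and of -0.56 in Myofibrobl. Irf8 in COX2i + 5-AZA against COX2i had 1.05 in TAM_Spp1 and -0.18 in NK cells. Irf4 in COX2i + 5-AZA against COX2i had 0.99 in TAM_C1q and -0.69 in cDC2. Irf5 in the same comparison had 0.42 in cDC2 and -0.39 in Myofibrobl, and Irf2 had 0.38 in cDC2 and -0.26 in Monocyte_1. With size factors computed in each class, an alternative chosen after seeing the data, the lower value stayed beyond counting error for Irf4 in cDC2, at -0.59 (-0.95 to -0.24). The other 4 did not, at -0.29 (-0.80 to 0.20) for Irf8 in Myofibrobl, -0.11 (-0.24 to 0.03) for Irf8 in NK cells, -0.35 (-0.72 to 0.01) for Irf5 and -0.17 (-0.34 to 0.01) for Irf2.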

How the results depend on the processing

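Of the 32 log2 ratios of members in monocytes and macrophages, 26 lay beyond counting error, and all 26 kept their sign under each of 7 other settings. The largest shift was 3.91 with the class mix of the control library, 0.52 with size factors, 0.26 with cells of more than 2000 genes only, 0.25 without the 5% of cells with most UMIs, 0.24 as a mean over cells, 0.22 without cells whose droplet barcode occurs in more than 1 library (an alternative chosen after seeing the data) and 0.04 without the 50 most abundant genes. With the class mix of CTRL, the members at least 2-fold higher in IRF3/7 fell from 6 to 2 and those at least 2-fold lower rose from 0 to 1. That setting rests on 3 classes, with 95.8% of its weight on TAM_cycling, which had 20 cells in IRF3/7; the lower member and the shift of 3.91 were Irf4, which had 0 UMIs in those cells. With cells of more than 2000 genes only, the members at least 2-fold higher in COX2i went from 1 to 0. Without cells holding Siglech or Ccr9, also chosen after seeing the data, the Irf8 ratio of IRF3/7 to CTRL in cDC2 went from 2.21 to 1.74. No paired analysis was possible because each group is 1 library. Neutrophils, cDC1, NK cells and DC3 had under 50 cells in CTRL or another library, which limits what can be read from their levels.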
